A study of Bos taurus with 8 samples.

Results

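The lysozyme c genes of cattle lie in a cluster on chromosome 5, and the transcript levels of loci in that region were followed across 8 tissues. Loci were taken from the deposited table where they carried an Ensembl transcript identifier, lay between positions 44250000 and 44750000 of chromosome 5 (UMD3.1) and spanned 2000 to 15000 bases. By this rule 1 locus was found, ENSBTAT00000015846, out of 13 named loci in the window and 24886 named loci in the table. The rule could not judge 8 of the other 12, because the table gives all 8 the same coordinates, 44421169 to 44720998, a shared region of 299830 bases, in place of their own. Their spans are thus unknown, and they are described here beside the locus that passed. Over all chromosomes, 7236 named loci share coordinates with another named locus. Of the last 4 named loci of the window, 1 spanned 24498 bases and 3 spanned 89 to 114 bases.

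The RNA-Seq data came from 3 parts of the digestive tract (rumen, abomasum and ileum), nucleated blood cells, intercaruncular uterus, mammary parenchyma, frontal cortex and whole testes, with 1 library per tissue. No treatment was given to any group, and the labels of the libraries name neither the age nor the sex of the animals. The study took its tissues from a Hereford cow and her relatives, and for its matching methylation libraries it listed adult testes, uterus and blood cells, juvenile frontal cortex, mammary gland, abomasum and ileum, and a fetal rumen. The study describes the RNA and the methylation data as coming from the same tissues, and its methods and sample list, as read here, do not say whether each tissue was also from the same animal. With 1 library per tissue there was no spread between replicates, no test between tissues was run, and tissue, age and animal cannot be told apart.

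Lysozyme c is a secreted enzyme that cuts the peptidoglycan of bacterial cell walls. Most mammals use it as an antibacterial protein of neutrophils, macrophages and secretory epithelia. In ruminants the gene was duplicated many times, and some copies became digestive enzymes of the abomasum (the glandular stomach), where they break down bacteria arriving from the rumen (the largest forestomach). Other copies are called non-stomach lysozymes, and are known from leukocytes and other epithelia.

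The table does not pair its identifiers with symbols, and 0 of its 26547 identifiers were found in the list of RefSeq genes given for ARS-UCD2.0, a later assembly. RefSeq lists 6 genes with a lysozyme symbol or synonym in this stretch of chromosome 5, in the order LOC281287 (synonyms LYZ1 and LYZF1), LYSB, LYZ2, LOC781349, LYZ3 and LYZ. The gene before them is YEATS4, which encodes a chromatin reader protein, and the gene after them is CPSF6, which encodes a subunit of the complex that cleaves pre-mRNA for polyadenylation. The layout of ENSBTAT00000015846 is close to that of LOC281287. It spans 5955 bases in the table and LOC281287 is 5956 bases long, a length shared within 1 base by 8 RefSeq genes in all. The locus before it, ENSBTAT00000002913, ends 8760 bases away and spans 24498 bases, while YEATS4 ends 8759 bases before LOC281287 and is 24592 bases long. No such layout could be drawn for the 8 loci of the shared region, so they were not assigned to genes. Between LOC281287 and LYZ, RefSeq lists 9 protein-coding genes, LYSB, LYZ2, LOC781349 and LYZ3 among them. The others, LOC785803 (6219 bases), LOC781146 (4581), LOC112446693 (5865), LOC617219 (5853) and LOC787241 (23919), carry no lysozyme symbol or synonym in that list. The 8 loci may be any of these genes, LYZ or an unrelated neighbour. Lysozyme copies can be near-identical in sequence, so reads may have been divided between them, and the level of each single copy is uncertain.

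Levels are given in FPKM, fragments normalized to transcript length and sequencing depth, the unit of the deposited table. The scaled depth recovered from the values was 6082000 reads in mammary gland to 15625000 in rumen. On a transcript of 1000 bases, the limit that a count of 0 allows (3 reads) was 0.264 FPKM in rumen to 0.679 in mammary gland. The transcript lengths of the loci are not in the table, so read numbers below are given for a transcript of 1000 bases and are approximate. Intervals are 95% and cover counting error only. None of the loci in the window had a failed estimate (0 in all pairs of tissues). The tissues could not be checked against marker genes, because the identifiers have no symbols.

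ENSBTAT00000015846 (chromosome 5, 44351615 to 44357569) was a transcript of the rumen and, at a lower level, of the ileum. Its level was 1687 FPKM in rumen, 125 in ileum, 0.793 in abomasum, 0.523 in nucleated blood cells, 0.472 in frontal cortex, 0.408 in the uterus, 0.249 in mammary gland and 0.129 in whole testes. Only rumen and ileum stood above 1 FPKM. In a mixed tissue, more cells of the expressing type and more RNA per cell cannot be told apart.

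The rumen level of ENSBTAT00000015846 was 13.5 times that of ileum (12.5 to 14.6), and 2128 times that of abomasum (1046 to 4777), the other stomach compartment. With every library rescaled to the same summed FPKM, which lowers rumen values most, these ratios were 7.43 and 1238. The abomasum value corresponded to about 8 reads, and the values in whole testes and mammary gland to about 0.971 and 1.10 reads, under the limit that a count of 0 allows. The order of the 6 low tissues therefore could not be read at this depth. In rumen the locus held rank 115 of 24886 named loci, and in ileum rank 637. It took 0.140% of the summed FPKM of named nuclear loci in rumen and 0.0188% in ileum.

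**Figure D1:**
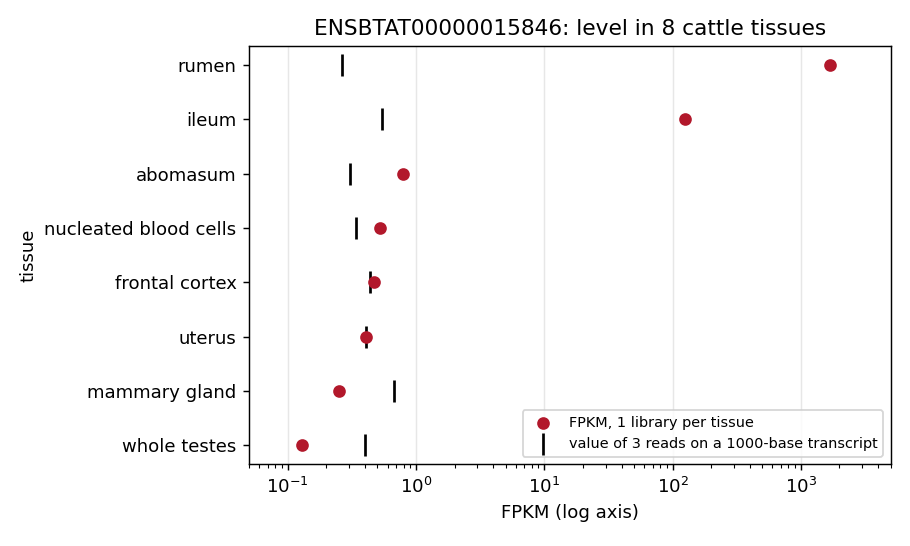
Level of ENSBTAT00000015846 in 8 cattle tissues, with FPKM on a log axis and tissues in order of level. Each point is 1 library, and each vertical tick is the FPKM that 3 reads on a transcript of 1000 bases would give in that library; rumen (1687) and ileum (125) lie far above their ticks, and whole testes (0.129) and mammary gland (0.249) lie below theirs.

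Enrichment in a tissue was called from 1 FPKM upwards, provided that FPKM + 1 there was 5 or more times the value of the tissue in second place. ENSBTAT00000015846 was enriched in rumen, as were 0.763% of all named loci. Its ratio on that scale was 13.4. Its tau index, which is 0 for an even level and 1 for a single tissue and was taken on log2(FPKM + 1), was 0.867, while the median over 17484 named loci with at least 1 FPKM in some tissue was 0.436. Of the 5951 named loci of the table that span 2000 to 15000 bases, 5028 passed that filter, with a median tau of 0.431.

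The pattern was shared by few other loci. Of 13219 named loci outside the window with at least 10 FPKM in a tissue, 31 had a Pearson r of at least 0.9 with ENSBTAT00000015846 over the 8 tissues on log2(FPKM + 1). The closest were ENSBTAT00000018362 on chromosome 12 (r = 0.994), ENSBTAT00000002651 on chromosome 11 (r = 0.981) and ENSBTAT00000007039 on chromosome 23 (r = 0.978). ENSBTAT00000018362 had 20.6 FPKM in rumen and 9.40 in ileum, and 0 was listed for the remaining 6 tissues. ENSBTAT00000002651 had 129 FPKM in rumen, 48.5 in ileum and 0.485 to 2.13 elsewhere. ENSBTAT00000007039 was present in all 8 tissues, with 78.6 FPKM in rumen, 24.2 in ileum and 6.79 to 9.61 elsewhere. All 3 points of likeness thus rest on the same rumen and ileum libraries, and all 3 loci were lower in rumen than ENSBTAT00000015846. In all, 16 named loci of the table were higher in rumen than in ileum while their ileum level was at least 10 FPKM and at least 5 times that of every other tissue. ENSBTAT00000015846 is itself among these 16.

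The shared region held a locus of another order, highest in ileum. This locus combines 5 transcript identifiers (ENSBTAT00000000231, ENSBTAT00000027401, ENSBTAT00000031211, ENSBTAT00000052851 and ENSBTAT00000055398), so that its value may sum more than 1 gene. Its level was 4791 FPKM in ileum, 216 in rumen, 28.4 in uterus, 5.04 in abomasum, 4.51 in nucleated blood cells, 2.85 in the mammary gland, 1.27 in whole testes and 0.262 in frontal cortex. Ileum and rumen again stood highest, but in the reverse order to ENSBTAT00000015846.

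The ileum level of this locus was 22.1 times that of rumen (21.2 to 23.1) and 168 times that of uterus (147 to 194). After rescaling to equal sums, the ratio to rumen was 40.4. It held rank 11 of 24886 in ileum, where it took 0.723% of the summed FPKM of named nuclear loci, and rank 550 in rumen. It was enriched in ileum, as were 0.41% of all named loci, and its tau index was 0.753. Its r with ENSBTAT00000015846 over the 8 tissues was 0.796, the highest among the named loci of the window. Both loci were measured in the same 8 libraries, 1 per tissue, which allow no more than a description.

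A further 3 loci of the shared region were highest in abomasum, where digestive lysozyme is secreted. Whether they are digestive lysozyme copies was not tested. ENSBTAT00000007924 reached 14336 FPKM in abomasum, the highest value in the window. It had 1.35 FPKM in mammary gland, 32.7 in ileum, 3.47 in nucleated blood cells, 0.359 in whole testes and 0.216 in uterus, and 0 was listed for frontal cortex and rumen. The abomasum level was 439 times that of ileum (380 to 512) and ranked 7 of 24886 in its library, with 2.04% of the summed FPKM of named nuclear loci.

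ENSBTAT00000004235 had 2921 FPKM in abomasum (rank 25), 1.09 in nucleated blood cells and 2.71 in ileum, with 0 listed for the remaining 5 tissues. ENSBTAT00000027399 had 1008 FPKM in abomasum (rank 89), 0.195 in mammary gland, 2.17 in ileum and 0.307 in nucleated blood cells, with 0 listed for the remaining 4 tissues. The abomasum level exceeded that of ileum 1080-fold (648 to 1911) at the first of these loci and 465-fold (264 to 893) at the second. All 3 loci were enriched in abomasum, as were 0.386% of all named loci, and their tau indices were 0.905, 0.963 and 0.967. In rumen, the deepest library, all 3 were listed at 0, whereas ENSBTAT00000015846 had its highest level there.

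Among the 3 abomasum loci, ENSBTAT00000007924 had the highest level in abomasum, ileum and nucleated blood cells. It made up 78.5% of their summed FPKM in abomasum, 87.0% in ileum and 71.2% in nucleated blood cells. ENSBTAT00000004235 made up 16.0%, 7.20% and 22.5%, and ENSBTAT00000027399 made up 5.52%, 5.77% and 6.31%. The low values behind these shares rest on few reads. In ileum ENSBTAT00000004235 and ENSBTAT00000027399 had about 14.9 and 11.9 reads, and in nucleated blood cells about 9.60 and 2.69, so the order of these 2 loci outside abomasum could not be read. Whether reads of 1 copy were counted at another was not tested.

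**Figure D2:**
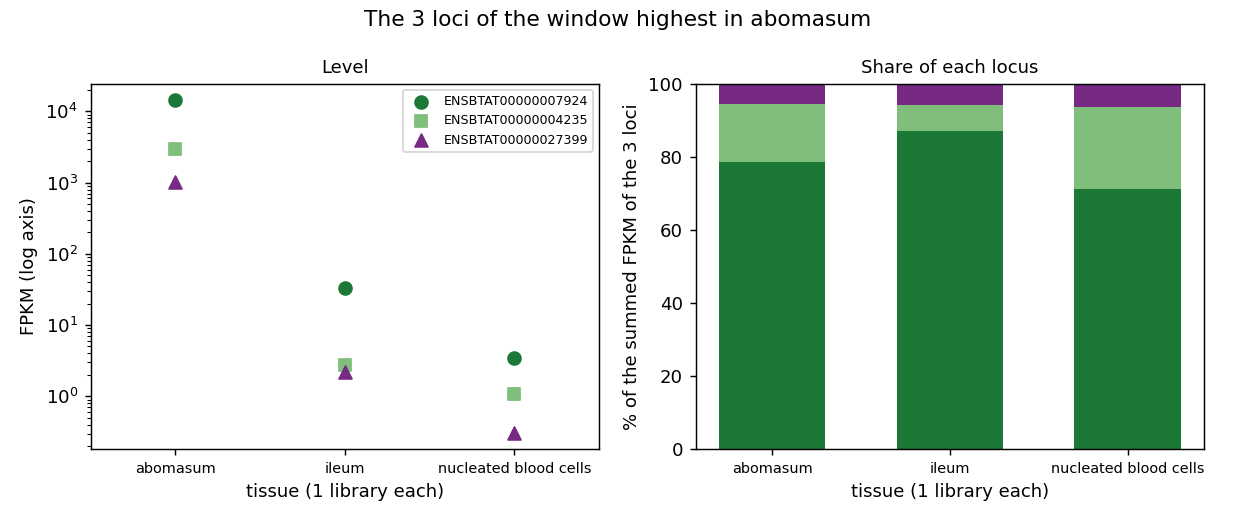
The 3 loci of the window highest in abomasum, in the 3 tissues where each had a value above 0. The left panel plots FPKM on a log axis with 1 point per locus and library, and the right panel plots the share of each locus in their summed FPKM; ENSBTAT00000007924 (circles, dark green) leads in all 3 tissues, with 78.5% in abomasum, 87.0% in ileum and 71.2% in nucleated blood cells.

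Another 2 loci of the shared region were highest in nucleated blood cells, the tissue that holds the leukocytes. ENSBTAT00000038266 was the only lysozyme-window locus besides ENSBTAT00000002913 with at least 1 FPKM in all 8 tissues. Its level was 1880 FPKM in nucleated blood cells, 164 in rumen, 66.3 in ileum, 18.5 in mammary gland, 16.9 in abomasum, 15.2 in uterus, 3.67 in whole testes and 2.01 in frontal cortex. The level in nucleated blood cells was 11.4 times that of rumen (10.9 to 12.0), or 19.5 times after rescaling, and ranked 63 of 24886. The locus was enriched in nucleated blood cells, as were 0.932% of all named loci, and its tau index was 0.610, below those of the other loci of the shared region that had a value. How much blood each solid tissue held was not tested.

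ENSBTAT00000060361 had 3831 FPKM in nucleated blood cells and 845 in ileum, with 0 listed for the remaining 6 tissues. It was also listed at 0 in rumen, where ENSBTAT00000038266 had 164 FPKM. The ratio between its values was 4.54, so it was not enriched by the rule. The number of reads behind this locus depends on a length that the table does not give. On a transcript of 100 bases its values would correspond to about 9.64 reads in nucleated blood cells and 1.33 in ileum, and on one of 1000 bases to about 33635 and 4638. Its ranks (20 in nucleated blood cells, 130 in ileum) are therefore not comparable with those of longer transcripts unless it is itself long. The values of 0 depend on its length as well. At 104 bases the limit that a count of 0 allows is at least 553 FPKM. On so short a transcript, the 0 in rumen would not exclude a level of 164 FPKM.

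**Figure D3:**
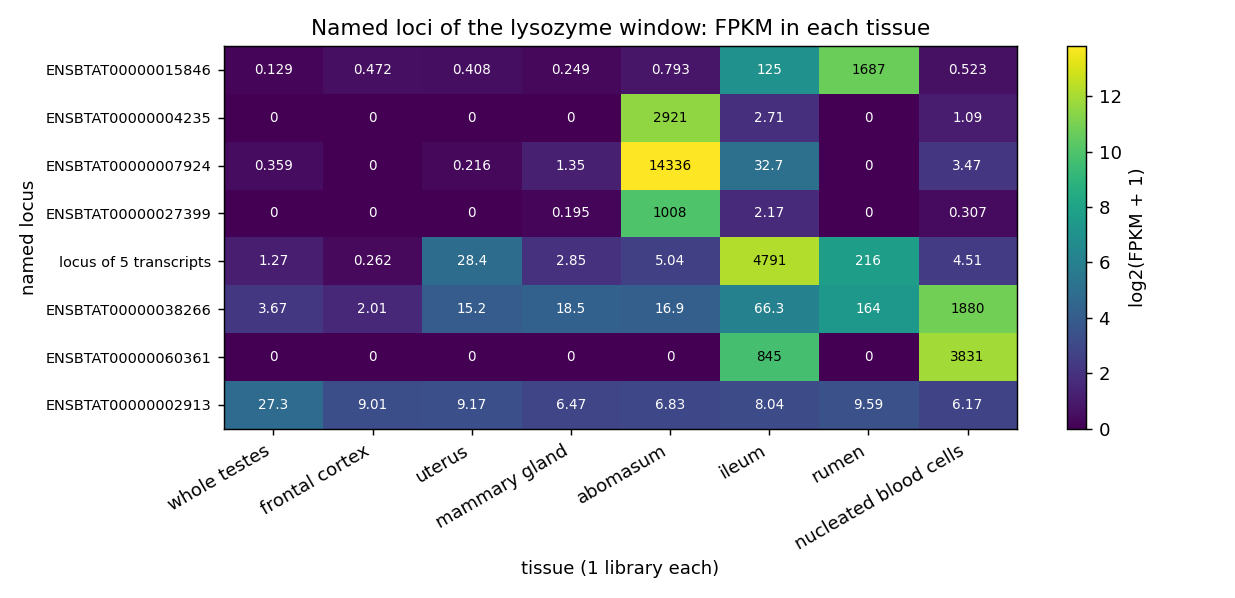
FPKM (printed in each cell) of the 8 named loci of the window with a value above 0, with tissues in columns, 1 library each, and colour giving log2(FPKM + 1). The highest cell of the top row is rumen (1687), the next 3 rows peak in abomasum (up to 14336), the locus of 5 transcripts in ileum (4791) and the next 2 rows in nucleated blood cells (1880 and 3831), while ENSBTAT00000002913 in the bottom row stays between 6.17 and 27.3 in every tissue.

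The last 2 loci of the shared region, ENSBTAT00000056893 and ENSBTAT00000017351, were listed at 0 in all 8 tissues. The 3 short named loci of the window, ENSBTAT00000062881 (114 bases), ENSBTAT00000059930 (104 bases) and ENSBTAT00000061810 (89 bases), were also listed at 0 throughout. A short locus needs a high FPKM to hold a single read, and the limit that a count of 0 allows ran from 220 to 566 FPKM at 114 bases and from 17197 to 44181 FPKM at 89 bases. At 104 bases it ran from 553 to 1421 FPKM. Levels of these 3 loci under such limits were not detectable at this depth.

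The neighbour that lies where YEATS4 would be, ENSBTAT00000002913 (44318357 to 44342854), differed from the lysozyme-window loci in its even level. It had 27.3 FPKM in whole testes and 6.17 to 9.59 FPKM in the 7 other tissues, with a tau index of 0.349. The level in testes was 2.84 times that of rumen (2.24 to 3.61) and 2.97 times that of uterus (2.24 to 3.96), and after rescaling these ratios were 5.55 and 2.31. In the 500000 bases before the window, 3 named loci spanned 2000 to 15000 bases and none reached 1 FPKM in a tissue, the highest value being 0.791 in mammary gland. In the 500000 bases after it there were 0 such loci. None of these neighbours reached the highest level of any of the 6 enriched loci of the window.

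Counted over the whole window, 6 of the 13 named loci (46.2%) were enriched in 1 tissue, 3 in abomasum and 1 each in ileum, rumen and nucleated blood cells, beside 12.1% of all named loci. The median tau index of the 8 named loci that reached 1 FPKM was 0.875, and of the 6 in the shared region it was 0.894. These loci lie side by side and may share reads, so they are not independent of each other.

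Because reads may have been divided between copies, the summed FPKM of the 13 loci is given as well, although it too depends on the transcript lengths used. It was 18294 in abomasum, 5872 in ileum, 5728 in nucleated blood cells, 2077 in rumen, 53.4 in uterus, 32.7 in whole testes, 29.6 in mammary gland and 11.7 in frontal cortex. In nucleated blood cells 66.9% of the sum was ENSBTAT00000060361, whose length is unknown, and without this locus, left out after its values were seen, the sum there was 1896 and that of ileum was 5028. The first 4 tissues each drew most of this sum from a different source. In rumen ENSBTAT00000015846 gave 81.2%, in ileum the locus of 5 transcripts gave 81.6%, in abomasum the 3 abomasum loci gave 99.8%, and in nucleated blood cells the 2 blood cell loci gave 99.7%. The abomasum and blood cell loci were grouped by the tissue where they were highest in these same values. Their shares in that tissue therefore follow in part from the grouping. The highest single locus gave 78.4% in abomasum and 66.9% in nucleated blood cells. In whole testes and frontal cortex most of the sum came from ENSBTAT00000002913 (83.4% and 76.7%). The window took 2.60% of the summed FPKM of named nuclear loci in abomasum, 0.886% in ileum, 0.807% in nucleated blood cells and 0.172% in rumen, and at most 0.0111% in the 4 other tissues. Without ENSBTAT00000060361 the share was 0.267% in nucleated blood cells and 0.758% in ileum.

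**Figure D4:**
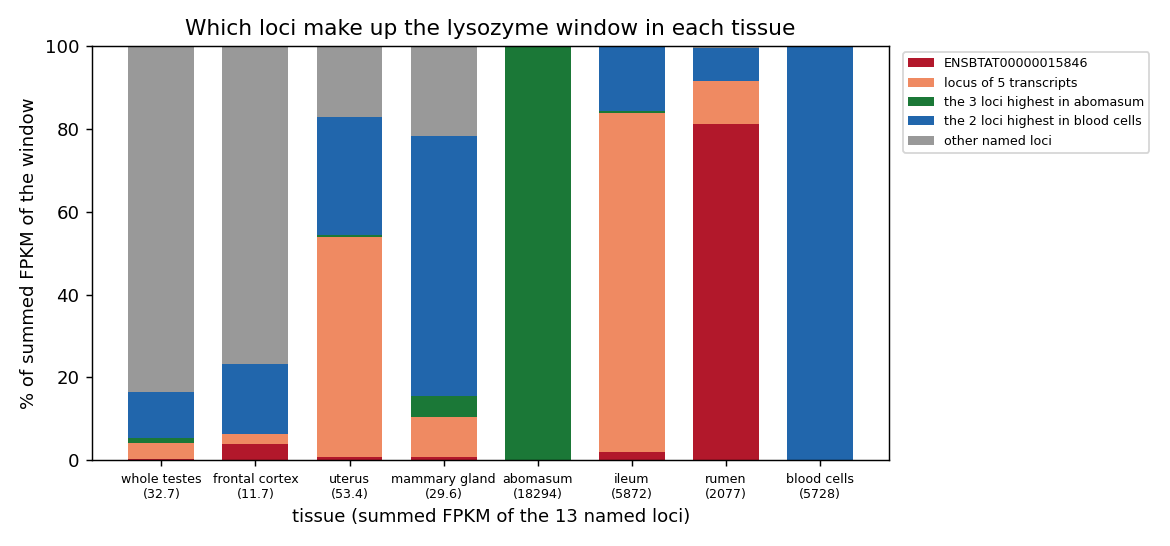
Share of the summed FPKM of the 13 named loci of the window held by each group of loci (stacked bars, in percent), with the sum itself in FPKM under each tissue and 1 library per tissue. Abomasum is nearly all from the 3 abomasum loci (99.8%), ileum mostly from the locus of 5 transcripts (81.6%), rumen mostly from ENSBTAT00000015846 (81.2%) and nucleated blood cells nearly all from 2 loci (99.7%), of which ENSBTAT00000060361 is 66.9%. The abomasum and blood cell groups were formed from these same values, by the tissue where each locus was highest.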

How the data were processed

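RNA-Seq libraries of 8 cattle tissues, 1 per tissue, were grouped by their labels. According to the methods of the study and the labels, the authors filtered single-end reads, aligned them to UMD3.1 with TopHat2 (version 2.0.13) and estimated levels with Cufflinks at default parameters. The deposited values are FPKM per locus and library. The table also holds the authors' fold changes, test statistics, p-values and q-values between pairs of libraries, none of which were used. The status column served only to look for failed estimates. The software sets reads that align to several copies partly to each, so single copies are uncertain.

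Loci were chosen by window and span, and every named locus of the window is reported. The members and lists were chosen with earlier results of these data known. For likeness, the 3 loci with the highest r to the locus that passed the rule are named. The plan assumed several members within the span limits, and 1 was found. Lists of marker, antimicrobial and gastric genes need symbols and are not analysed here.

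Depth was recovered from loci of 88 to 130 bases without an identifier, with fragment lengths from a normal distribution (mean 200, SD 80, minimum 87 bases). The depth that gave whole reads, within 0.03, for the most loci was taken near the smallest depth that did so for at least 95%, which gave shares of 97.7% to 100%. Sums and shares of FPKM per library leave out mitochondrial loci. Intervals of ratios are exact conditional binomial intervals of the reads expected on 1000 bases. Functions were tested on simulated data. Python 3.11.15, pandas 2.3.3, NumPy 2.4.6 and SciPy 1.17.1 were used. Alternatives covered the FPKM threshold, pseudocount, fold, span limits, unnamed loci, rescaling to equal summed FPKM, and leaving out the rumen library.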

Additional observations from a re-analysis of the deposited data

Results flagged for a closer look

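The window also held 4 loci without an identifier, which the comparisons above did not use. There are no control samples, and each was flagged because its highest value exceeded what 3 reads would give, the upper limit for a count of 0. A locus of 107 bases at 44263466 to 44263572 had 1477 FPKM in rumen, about 11.0 reads, and was listed at 0 elsewhere. A locus of 2144 bases at 44417905 to 44420048 had 1.66 FPKM in uterus, about 12.3 reads on 1000 bases, and was listed at 0 elsewhere. In the shared region, 1 unnamed locus had 29.0 FPKM in rumen, 5.18 in uterus, 5.06 in abomasum and 3.24 in nucleated blood cells, and another had 19.8 FPKM in abomasum and 0 in the remaining 7 tissues. Whether these loci belong to lysozyme genes was not tested.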

How the results depend on the processing

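With 1 library per tissue, values were taken to hold where they stayed within 1.5 times. Of 92 alternatives 71 held and 21 moved, 18 of them when all named loci of the window took the place of the 1 locus within the span limits, which adds loci by construction. The number of loci with at least 1 FPKM was then 8 in ileum, 6 in abomasum and blood cells, 4 in rumen and mammary gland, 3 in uterus and testes and 2 in frontal cortex of 13 loci, beside 45.0% to 58.2% of all named loci, where the rule gave 1 in ileum and rumen and 0 elsewhere. Enriched loci were 3 in abomasum, 1 in blood cells and 1 in ileum, in place of 0. The summed FPKM was 18294 in abomasum, 5872 in ileum, 5728 in blood cells, 53.4 in uterus, 32.7 in testes, 29.6 in mammary gland and 11.7 in frontal cortex. Without ENSBTAT00000060361, an alternative added after seeing the data, the sum in blood cells was 1896. Unnamed loci of the same span raised the uterus sum from 0.408 to 2.07. Rescaling to equal summed FPKM lowered the rumen level of ENSBTAT00000015846 from 1687 to 971, because the rumen library had the highest sum, and left it enriched in rumen. This scaling moved the median log2 level of the 12435 named loci above 0 in every tissue by -0.80 in rumen, 0.53 in uterus and -0.03 to 0.26 in the 6 other tissues. It multiplies every locus of a library by the same factor, so these shifts were fixed by the factors and test nothing. The tau index of ENSBTAT00000015846 was 0.756 with a pseudocount of 0.1 and 0.928 without the rumen library. The latter value describes the ileum level, because ileum is then the only tissue above 1 FPKM. No paired analysis was possible because the design has single libraries without replicates.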
